A study of Arabidopsis thaliana with 12 samples.

Results

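The abundant transcripts whose rank on the array stayed in place through the first hour of light were 77 probes, each matching 1 gene, out of 692 single-gene probes and 3439 probes in all. The plants were wild-type Arabidopsis thaliana of the Columbia 0 ecotype, the standard laboratory accession. RNA was measured in 6 samples of plants left in darkness over a night and in 6 samples of plants given 1 h of light after such a night. The labels name no tissue, age or light intensity, and they do not say whether samples of a group came from separate plants, so the spread between them may be technical. With these groups, light, time of day and handling cannot be told apart, and in whole samples fewer cells of a type and less RNA per cell cannot be told apart either.

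Members were chosen from the measured values themselves. Each array was turned into percentile ranks from 0 to 100, and a probe was kept if its mean percentile over the 12 arrays was 60 or more, if its light mean and dark mean differed by at most 3 percentile points, and if the 6 light and 6 dark ranks overlapped. The rule also leaves out 8 named genes, of which 1, AT4G01310, met the conditions. Of 256 single-gene probes at a mean percentile of 60 or more, 77 were therefore members and 179 were not. Because the contrast of light and dark chose the members, every light-minus-dark value below is a description and no support for steadiness. The light and dark values of every member overlap by this rule, so overlap is no support either.

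When a dark-kept leaf is lit, many nuclear genes change their transcript levels within the first hour, among them genes for proteins of the chloroplast, the organelle of photosynthesis. A transcript that holds its place in that time is of practical use, since expression studies measure changing transcripts against reference transcripts that do not change. Most chloroplast proteins are encoded in the nucleus, made in the cytosol and imported, so the transcripts measured include many that serve the chloroplast's own gene expression and metabolism.

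The steady transcripts spanned the upper part of the array. Their mean percentiles ran from 60.9 to 99.3 with a median of 84.1, against a median of 77.9 for the other bright single-gene probes. There were 23 members at the 90th percentile or above, 21 between 80 and 90, 22 between 70 and 80, and 11 below 70. All but 1 were above 0 on every array, the exception being AT5G49120 with 1 value listed at 0. By the chromosome in their locus names, 19, 10, 13, 16 and 19 members lay on chromosomes 1 to 5, against 41, 37, 41, 33 and 27 of the other bright probes. Only 1 pair of members, AT3G17550 and IAA31, lay within 5 protein-coding genes of each other in the TAIR10.1 gene table.

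**Figure D1:**
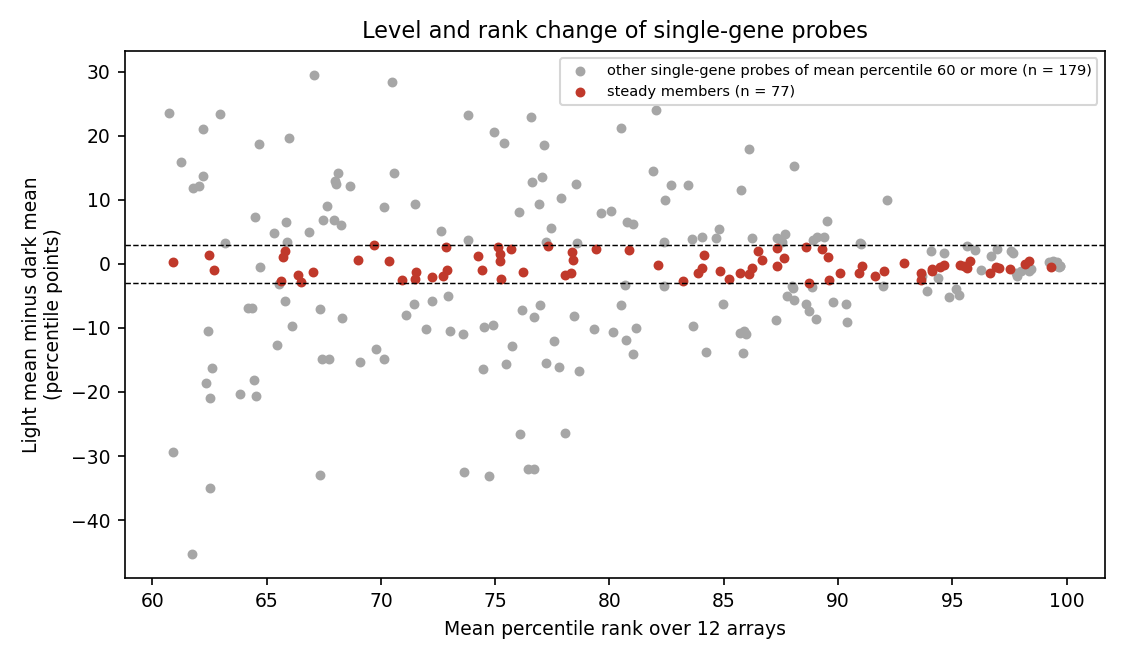
Mean percentile rank over 12 arrays (horizontal) against the light mean minus the dark mean in percentile points (vertical) for the 256 single-gene probes of mean percentile 60 or more. Red points are the 77 members, grey points the other 179 probes, and dashed lines the limits at -3 and 3. Grey points inside the lines are the 21 probes whose light and dark ranks did not overlap and genes the rule leaves out.

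At the lower limit of level, AT3G50180 was just inside with a mean percentile of 60.9 and AT4G24910 just outside with 58.1. At the limit of -3, AT5G62840 was inside with a difference of -2.98 percentile points and AT2G03200 outside with -3.19. At the limit of 3, AT1G32520 was inside with 2.88 and AT5G66780 outside with 3.10. A further 21 single-gene probes met both numeric limits but not the overlap. All 21 were at a mean percentile of 94.1 or more, with light above dark in 11 and dark above light in 10, and their log2 changes had a median size of 1.001 and ran in size from 0.55 to 1.67.

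A rank window has a different width in intensity at different levels. In what follows, a scaled intensity is the deposited value after quantile normalization, which gives all arrays the same distribution. In that distribution the 63rd percentile was 1.09 times the 60th and the 78th was 1.11 times the 75th, while the 93rd was 1.39 times the 90th and the 99th was 5.11 times the 96th. A brighter member could thus keep its rank while its intensity differed between light and dark.

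In scaled intensity the members' log2 changes, light minus dark, had a median of -0.05 and middle values from -0.13 to 0.07 (25th to 75th percentile). Over all 2966 probes tested the same quantities were -0.01 and -0.55 to 0.55. The 95% confidence intervals from limma give the precision of these values after quantile normalization, for members already chosen for a small rank difference. For 57 of 77 members the interval lay within 0.5 on the log2 scale on either side of 0, and for 72 it lay within 1. The first of these counts depended strongly on the scaling, as given below. For 66 members the interval included 0. The half-width of the interval had a median of 0.28 and ran from 0.18 to 2.39. In this fit, with 6 arrays a group and no term for replicate number, a change smaller than a member's half-width could not be told from 0. With replicate number as a block the interval lay within 0.5 for 55 members, and some intervals that had reached 0 no longer did. Intervals printed below are of the fit without that block unless stated. If arrays with consecutive replicate numbers are averaged, leaving 3 values a group, the interval lay within 0.5 for 28 members and within 1 for 69.

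The label "steady" held in rank but not in intensity for every member. By limma with Benjamini-Hochberg adjustment over all probes, 4 of the 77 members passed 0.05 in light against dark, where 40.4% of all probes did. Since the rule used this contrast, nothing is read from that difference. With the replicate number as a block, 10 members passed, where 44.3% of all probes did. These were AT4G17070, AT5G50350, AT1G73120, AT5G40030, AT1G01080, AT4G18180, AT3G17550, AT4G29890, AT1G12800 and AT1G50390. With consecutive numbers averaged, 1 member passed, AT4G18180, where 27.4% of all probes did. The 4 members of the first count were AT4G17070, AT4G18180 and AT1G12800, lower in light, and AT1G50390, higher in light, and the last 2 are named here because they passed. AT4G18180 is known as a gene of the pectin lyase type, a fold of cell wall enzymes. It ranged from 3.68 to 5.92 in the dark with a median of 4.82, and from 2.39 to 3.68 in light with a median of 2.92. Only the highest light value reached the dark range, and the log2 change was -0.75 (interval -1.07 to -0.42). AT1G50390, a gene of the pfkB type of sugar kinase, had a dark median of 0.901 and a light median of 1.13, with 1 of 6 light values inside the dark range of 0.840 to 1.00. Its log2 change was 0.29 (interval 0.06 to 0.51), and it turned to -0.21 on centring by medians and to -0.32 in the values before any scaling. Its call also ended in 9 of the 12 fits that left out 1 array, all but those without dark replicate 4, light replicate 5 or light replicate 6, with log2 changes of 0.24 to 0.30 in the 9.

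**Figure D2:**
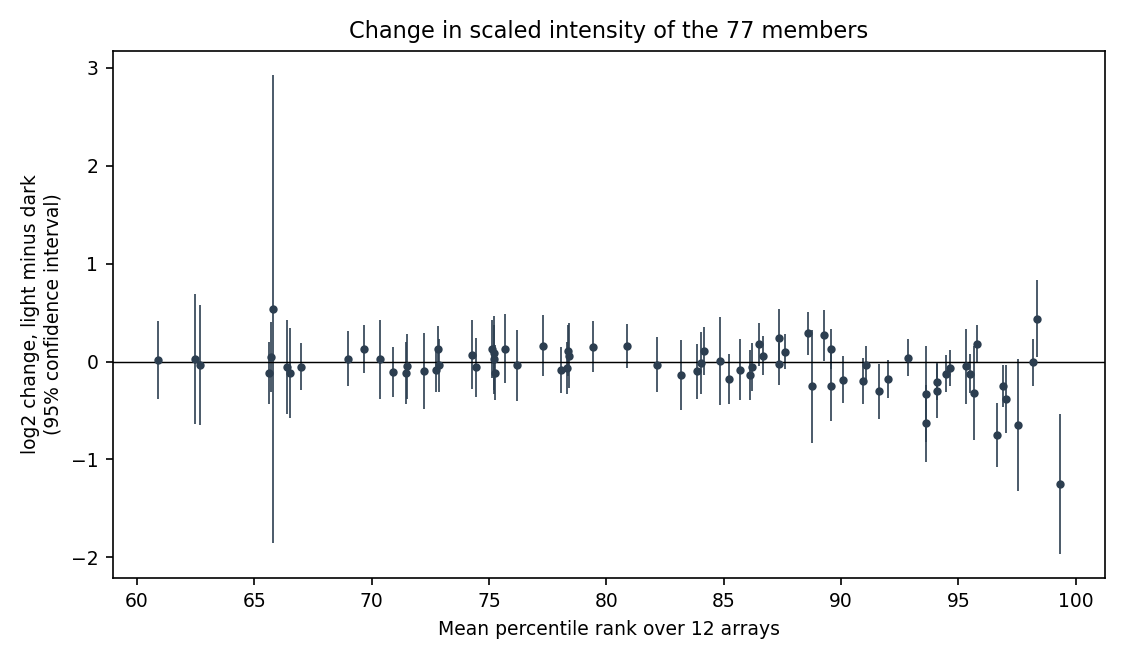
Log2 change in scaled intensity, light minus dark (vertical, points), with its 95% confidence interval from limma (bars), against mean percentile rank (horizontal) for the 77 members, n = 6 arrays a group. The highest point, 0.54 near percentile 66, is AT5G49120 with the widest bar, the points between 70 and 80 are at most 0.16 in size, and the lowest point, -1.25, is at the right edge.

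The size of the changes was read in 4 bands of mean percentile. Below 70, the log2 changes of 11 members had a median size of 0.05 and a largest of 0.54, that of AT5G49120, and 6 intervals lay within 0.5. Their standard deviations between arrays of a group had medians of 0.25 in the dark and 0.41 in light. Between percentiles 70 and 80 the log2 changes of 22 members were at most 0.16 in size, with a median size of 0.09, and all 22 intervals lay within 0.5. Between 80 and 90 the median size was 0.13 and the largest 0.29, and 16 of 21 intervals lay within 0.5. Among the 23 members at the 90th percentile or above the median size was 0.21, the largest 1.25, 13 intervals lay within 0.5 and 9 left out 0. The members' standard deviation between arrays of a group had a median of 0.18 in the dark and 0.22 in light on the log2 scale, against 0.20 and 0.23 in the other bright single-gene probes and 0.32 and 0.39 over all probes. The light arrays had the larger standard deviation in 49 of 77 members, and in 109 of the 179 other bright probes. Since a wide spread helps ranks to overlap, the rule bears on these values too.

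A textbook role was given to 37 members in 5 groups, from general knowledge of the genes and after the values had been seen. The 9 lists of gene symbols set up by role, such as photosystems, protein import and plastid translation, held 15 of the 692 single-gene probes, and 0 of these were members. Over all 692 single-gene probes 77 were members, so with 15 probes nothing is read from the 0.

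The first group, RNA binding and organelle gene expression, held 11 members, with log2 changes from -0.63 to 0.24, 7 above and 4 below 0. AT1G01080, an RNA-recognition-motif protein of the chloroplast type, ranged from 3.89 to 4.62 in the dark (median 4.38) and from 3.19 to 4.16 in light (median 3.59). Its rank moved by only 1.05 percentile points over the 12 arrays, yet 4 of 6 light values lay outside the dark range, and the log2 change was -0.25 (interval -0.46 to -0.03). AT2G19280, a pentatricopeptide repeat protein, a class that binds organelle RNA, went the other way in its medians, from 2.54 (2.39 to 2.86) in the dark to 2.93 (2.61 to 3.20) in light. Only 1 light value lay inside the dark range, and its interval included 0 (log2 change 0.18, interval -0.01 to 0.38).

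AT1G12800, which carries the S1 RNA-binding domain, had the largest difference in this group. It ranged from 1.61 to 2.84 in the dark (median 2.40) and from 1.06 to 1.68 in light (median 1.46), with 2 light values inside the dark range and a log2 change of -0.63 (interval -1.03 to -0.24). Its call ended with consecutive numbers averaged, and without replicates 1 and 2 of both groups. Beside AT1G01080, the RNA-recognition-motif genes AT2G37510, AT3G04500 and AT1G70200 had log2 changes of 0.24, -0.25 and 0.16, each with an interval that included 0. With the replicate block the interval of AT2G37510 was 0.05 to 0.44, which left out 0, while those of AT3G04500 and AT1G70200 still included it. AT1G62010 and AT3G46950, of the mTERF family of organelle transcription factors, were at -0.07 (interval -0.34 to 0.19) and 0.13 (interval -0.10 to 0.36). AT3G15140, an exonuclease of the ERI-1 type, was at 0.02 (interval -0.33 to 0.37). The pentatricopeptide repeat genes AT2G46050 and AT1G79080 were at 0.004 and 0.02, but with wide intervals, from -0.44 to 0.45 and from -0.64 to 0.69.

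The 10 metabolic enzymes were among the brighter members, with a median mean percentile of 90.6. Their log2 changes ran from -0.33 to 0.29, the highest that of AT1G50390 given above, with 7 below and 3 above 0. AT5G52810, of the ornithine cyclodeaminase family, ranged from 2.47 to 3.03 in the dark (median 2.57) and from 2.29 to 2.84 in light (median 2.40). Inside the dark range lay 3 light values, and the 12 arrays spanned 1.32-fold. AT1G06730, a sugar kinase of the pfkB type, was narrower still, from 1.87 to 2.20 in the dark (median 2.11) with a light median of 1.87 and 3 light values inside that range, a span of 1.28-fold over the 12 arrays. ATSPS4F, a sucrose phosphate synthase, the enzyme that commits carbon to sucrose, had a dark median of 0.975 (0.796 to 1.15) and a light median of 1.12 (1.03 to 1.40). Its 2 highest values were in light, 4 light values lay within the dark range, and the log2 change was 0.27 (interval 0.01 to 0.53).

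Enzymes of amino acid, fatty acid and nucleotide synthesis had mixed values. AT1G24360, the ketoacyl-ACP reductase of plastid fatty acid synthesis, had medians of 1.03 in the dark and 1.12 in light (log2 change 0.13, interval -0.08 to 0.33). AT5G10920, argininosuccinate lyase, the last step of arginine synthesis, had medians of 1.48 and 1.18 (log2 change -0.30, interval -0.58 to -0.02). AT3G58610, the ketol-acid reductoisomerase of branched-chain amino acid synthesis, had medians of 0.472 and 0.473 (log2 change -0.05, interval -0.38 to 0.28). AT2G35390, a phosphoribosyl pyrophosphate synthetase, had medians of 0.401 and 0.409 (log2 change -0.05, interval -0.29 to 0.19). AT3G06200, a guanylate kinase, was less even in the dark, from 1.91 to 4.54, with all 6 light values, 2.21 to 2.86, inside that range. AT4G29890, a gene like choline monooxygenase, is described below for its differences between replicate numbers.

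Plastid membrane, lumen and folding genes formed a group of 6 members at mean percentiles from 71.5 to 91.1. Its median log2 change was 0.10 after quantile normalization. On the values as deposited it was -0.42, beside -0.44 for all members. The rule limited these changes and the roles were given after the values were seen, so the groups are not ranked by them. All 6 log2 changes lay between -0.12 and 0.11, all 6 intervals included 0, and all 6 lay within 0.5. AT2G38550, of the fatty acid export family, had the smallest span among all genes given a role, 1.19-fold over 12 arrays, from 1.15 to 1.33 in the dark and from 1.13 to 1.34 in light. AT4G24930, a protein of the thylakoid lumen, spanned 1.26-fold, with medians of 0.891 and 0.947. SECE1, a subunit of the Sec translocase that inserts proteins into the thylakoid membrane, ranged from 0.512 to 0.684 in the dark (median 0.547) and from 0.518 to 0.717 in light (median 0.602). Of its light values 4 lay inside the dark range, and the log2 change was 0.11 (interval -0.15 to 0.37). The other members of the group were the rhodanese-like AT4G27700 and AT4G24750 and the cyclophilin AT5G35100, with log2 changes of 0.11, 0.09 and -0.12.

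The 6 signalling and transcription genes had log2 changes from -0.39 to 0.07, and 5 of their intervals included 0. IAA31, an Aux/IAA repressor of auxin responses, was even in the dark, from 0.794 to 0.913, and uneven in light, from 0.604 to 1.03, with medians of 0.863 and 0.805. Its log2 standard deviation was 0.09 in the dark and 0.32 in light, and its log2 change -0.09 (interval -0.40 to 0.23). LAS, a GRAS-family transcription factor needed to form side shoots, ranged from 0.301 to 0.543 in the dark (median 0.366), and all 6 light values, 0.312 to 0.509 (median 0.397), fell inside that range. CML41, a calmodulin-like calcium sensor, had medians of 0.514 (0.371 to 0.586) in the dark and 0.544 (0.366 to 0.672) in light. Inside its dark range lay 3 light values. The AP2/ERF-type gene AT1G01250 and the kelch-repeat F-box gene AT1G51550 were at -0.03 and -0.09. AT5G40030, a protein kinase gene and the brightest of the 6, had medians of 5.10 in the dark and 3.90 in light, with 3 light values inside the dark range (log2 change -0.39, interval -0.73 to -0.04).

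The last group held kinesin, histone and trafficking genes, 4 in all, with log2 changes from -0.18 to 0.13, and all 4 intervals included 0 and lay within 0.5. Of 24 genes often used as references for quantitative PCR in Arabidopsis, 1 had a single-gene probe here, AT2G28390 (MON1), a gene of vacuolar trafficking, and it was a member. Since 77 of the 256 single-gene probes at a mean percentile of 60 or more were members, nothing is read from this 1 gene. AT2G28390 is described here by its values. It ranged from 0.441 to 0.668 in the dark (median 0.506) and from 0.438 to 0.801 in light (median 0.521). Overlap of the groups is a condition of membership and no result for this gene. Of its light values 4 lay inside the dark range, and the log2 change was 0.13 (interval -0.22 to 0.48). Its 12 values spanned 1.83-fold, against a median span of 1.67-fold over all members, so other members were tighter on these arrays. The kinesin genes AT3G44050 and AT3G20150, for motor proteins of microtubules, were at -0.14 and -0.18, and AT1G13370, a histone H3 gene, at -0.05. Histone H3 genes are near-identical copies, so other copies may share the probe of AT1G13370. AILP1, named as an aluminium-induced-like protein and in no group, had medians of 0.614 in the dark (0.568 to 0.648) and 0.715 in light (0.541 to 0.788), with a log2 change of 0.16 (interval -0.07 to 0.39).

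The other 40 members, in none of these groups, had log2 changes from -1.25 to 0.54, 13 above and 27 below 0, and for 35 of them the interval included 0. Among the 8 brightest members, 4 have no role given here. AT4G17070 was the brightest, at a mean percentile of 99.3, and differed most in intensity. It ranged from 14.2 to 53.3 in the dark (median 47.6) and from 9.18 to 20.7 in light (median 17.2). The dark values other than 1 were all above the light values, and replicate 1 was the lowest array in both groups. The log2 change was -1.25 (interval -1.96 to -0.54), a light level of 0.42 times the dark level, although its light mean rank was only 0.55 percentile points from the dark one. Centring by 75th percentiles ended the call (log2 change -0.73), as did averaging consecutive numbers, and without dark replicate 1 the log2 change was -1.56. AT5G50350 was higher in light in its medians, 8.28 (5.50 to 9.68) in the dark and 10.7 (7.99 to 12.8) in light, with a log2 change of 0.44 (interval 0.04 to 0.83). AT1G73120 had medians of 8.96 (3.75 to 9.68) and 4.89 (2.56 to 5.83), and its interval of -1.32 to 0.02 reached 0. With the replicate block its interval was -0.96 to -0.33, which left out 0, and with consecutive numbers averaged it was -1.71 to 0.42.

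AT1G16080 combined a high level with the narrowest range of rank. It stayed within 0.47 percentile points over all 12 arrays, at a mean percentile of 98.2. Its scaled intensity ranged from 6.67 to 9.18 in the dark (median 7.68) and from 6.67 to 8.44 in light (median 7.65), so every light value lay inside the dark range. The log2 change was -0.01 (interval -0.25 to 0.23). AT4G17650 was also narrow in rank and had the smaller span in intensity, 1.23-fold, from 1.98 to 2.26 in the dark and from 1.84 to 2.24 in light. With AT5G52810, AT1G01080, AT2G19280 and AT1G06730, described above, these were the 6 members of narrowest rank, and their spans in intensity ran from 1.23-fold to 1.45-fold.

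**Figure D3:**
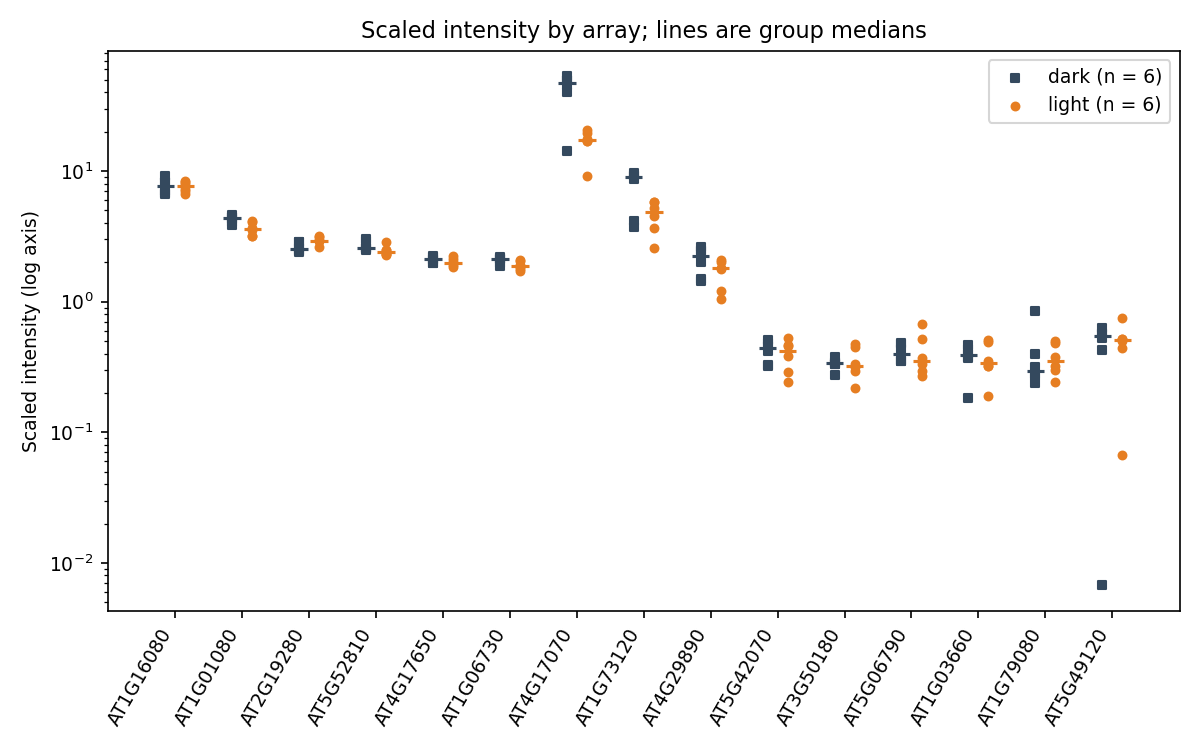
Scaled intensity (log axis) of 15 members on each dark array (squares) and light array (circles), n = 6 a group, with group medians as lines. The 6 on the left have the narrowest rank. The next 3 have the lowest p of the members in limma's test over replicate number, where none passed 0.05 after adjustment. The 6 on the right have the widest rank, with AT5G49120 far down on 1 dark and 1 light array.

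At the other end, the 6 members with the widest range of rank lay below the 67th percentile. AT5G49120 ranged over 76.6 percentile points. It was listed at 0 in dark replicate 2 and at 0.067 in light replicate 2, while the other 10 arrays lay between 0.429 and 0.744. Its log2 change of 0.54 had an interval from -1.86 to 2.93, so its steadiness could not be judged from all 12 arrays. The value was -0.51 without dark replicate 2, 1.04 without light replicate 2, and -0.04 without replicates 1 and 2 of both groups. AT1G79080 ranged from 0.240 to 0.847 in the dark, with replicate 2 the highest, and from 0.241 to 0.502 in light. AT1G03660 ranged from 0.182 to 0.466 in the dark and from 0.191 to 0.512 in light. AT5G06790, AT3G50180 and AT5G42070 spanned 2.47-fold, 2.20-fold and 2.20-fold over the 12 arrays, with medians close to each other in dark and light.

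The replicate numbers gave a contrast that is balanced over light and dark, since each number occurs once in either group. It is not fully independent of the choice of members, because the overlap condition depends on the spread between arrays. By limma's moderated F test over the 6 numbers, with Benjamini-Hochberg adjustment over all probes, 0 of 77 members passed 0.05, where 1.15% of all probes did, and the lowest adjusted p of a member was 0.103. At an unadjusted p of 0.05 by the same limma test, 10 members passed, where 13.6% of all probes did. With limma's intensity trend and robust variance 7 members passed, where 2.83% of all probes did. With the 3 consecutive pairs of numbers as the factor 5 members did, all 5 among the 7, where 2.93% of all probes did. These 5 were AT4G29890, AT1G73120, AT5G40030, AT5G50350 and AT1G13370 (limma, adjusted p from 0.0065 to 0.036 over pairs). Earlier results had shown that consecutive numbers were alike on these arrays, so the pair factor was chosen with that known.

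The values of these genes show what the test measured. AT1G73120 was at 3.75 and 4.11 in dark replicates 3 and 4 and between 8.74 and 9.68 in the other dark arrays, and at 2.56 and 3.68 in light replicates 3 and 4 and between 4.54 and 5.83 in the others. AT4G29890 was likewise lowest in replicates 3 and 4 of both groups, at 1.43 and 1.48 in the dark and 1.05 and 1.20 in light, against 2.02 to 2.61 and 1.78 to 2.07 in the others. AT5G40030 differed in replicates 1 and 2, both at 3.98 in the dark and at 2.94 and 2.80 in light, below all other arrays of the group. Between the highest and lowest number the log2 means differed by 1.24 in AT1G73120, 0.90 in AT4G29890 and 0.64 in AT5G40030, beside light-minus-dark changes of -0.65, -0.33 and -0.39. The former is a range over 6 means of 1 dark and 1 light array each, the latter a difference of group means over 6 arrays. A range over more and smaller means tends to be larger, so the sizes are not compared. What the numbers mark is not stated in the labels, and its part in the light contrast was not tested.

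Whether these transcripts were steady also depended on how arrays were made comparable. On the values as deposited, the light arrays were lower as a whole. The median log2 change of all probes was then -0.21 and that of the members -0.44, with 75 of 77 members below 0 and 41 passing 0.05 by limma, all lower, where 43.9% of all probes passed. With arrays centred on their medians the members' median was -0.33, again with 75 of 77 below 0 and 38 passing, where 45.5% of all probes did. With arrays centred on the 75th percentile it was -0.08 with 16 members passing, where 44.7% of all probes did. With cyclic loess it was 0.01 with 8 passing, where 35.0% of all probes did. The interval lay within 0.5 on either side of 0 for 57 members after quantile normalization and for 58 with cyclic loess. It did so for 49 with 75th-percentile centring, 16 with median centring and 2 on the values as deposited. The members' median lay 0.24 below that of all probes in each of the scalings without a change in the shape of the distribution, and 0.04 below and 0.03 above it with quantile normalization and cyclic loess. A steady rank here means steady relative to the array, and for SECE1, LAS, CML41, AILP1, ATSPS4F and AT2G28390 the log2 change was above 0 after quantile normalization and between -0.22 and -0.32 as deposited.

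**Figure D4:**
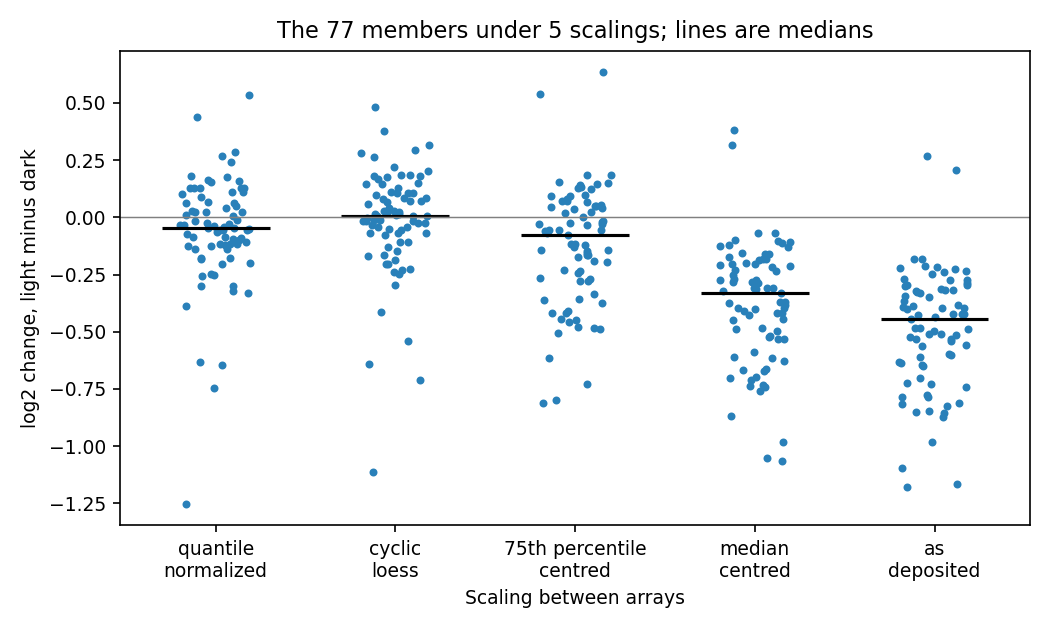
Log2 change, light minus dark (vertical), of each of the 77 members (points) under 5 ways of making the arrays comparable (horizontal), with medians as lines. The medians run from 0.01 with cyclic loess to -0.44 on the values as deposited.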

How the data were processed

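Each of the 12 arrays has 1 deposited intensity for each of 3439 probes, on a linear scale that ends at 100. The steps by which the authors made these deposited intensities are not given in the sources used here. Column sums ran from 2943 to 3683, and between 11.7 and 15.7% of an array's values were 0. The number of arrays limits the precision. Groups and replicate numbers came from the sample titles. Probes were named from the platform annotation, which lists 1 gene for 692 probes, several for 870 and none for 1877, and 76 of 77 members matched the TAIR10.1 gene table (AT1G03660 did not).

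The rule was applied to percentile ranks of the deposited values. For log2 changes, arrays were quantile normalized, values were floored at the 1% quantile of positive values (0.0067), log2 was taken, and 473 probes were dropped for lying at the floor in over 6 arrays, no member among them. limma 3.58.1 (R 4.3.3) was fitted to the 2966 probes left, for light against dark and for replicate number with light as a term, two-sided, with Benjamini-Hochberg adjustment. Both fits were also run on simulated data with noise drawn independently for each array. That run left out the likeness of same-numbered arrays given below, so it does not check the fits under it. Figures were drawn with matplotlib 3.10.9. Deviations from the group means correlated between same-numbered dark and light arrays at 0.30 to 0.56 over 1483 probes. The fit with a replicate block treats the numbers as pairing the samples, on the values and not the labels. The main fit has no such term, so its calls and intervals ignore this pairing.

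The members and lists were chosen with earlier results of these data known. The text names the 8 brightest members, the 6 narrowest and 6 widest in rank, the 5 with the lowest p for replicate number, those at the limits, the 6 with a gene symbol, the members passing in light against dark, and further members by role or result, chosen after their values were seen. Of 10 markers of leaf, root and guard cells, 0 were on single-gene probes, so the tissue was not checked. Alternatives covered scaling, floor, filter, variance model, replicate block, averaged numbers, the rule's limits and left-out arrays.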

Additional observations from a re-analysis of the deposited data

Results flagged for a closer look

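Among 102 sets of 6 arrays (51 genes named in the text, dark and light), 8 held an array far from the other 5 relative to the set's range. Some of these genes were named for their wide rank or their differences between replicate numbers. The count is therefore not set against a share given by chance. Values are log2 scaled intensities, and no cause was tested. AT4G17070 was low in replicate 1 of both groups, at 3.82 in the dark against a median of 5.63 in the other arrays and at 3.20 in light against 4.14. AT5G49120 was low in replicate 2 of both groups, at the floor of -7.21 in the dark against -0.82 and at -3.91 in light against -0.96. AT5G62840 was at -1.08 in light replicate 4 against 0.16, and AT2G46050 at -1.27 in light replicate 1 against -0.12. AT1G01250 was high in light replicate 5, at -0.29 against -0.60, and AT1G03660 low in dark replicate 4, at -2.46 against -1.32.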

How the results depend on the processing

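The number of members was 77 by the rule and stayed between 55 and 98 under its 6 other settings, from a difference within 2 points to no overlap required. Leaving out 1 array gave 65 to 78, of which 62 to 73 were among the 77, and leaving out replicates 1 and 2 of both groups, added after the values were seen, gave 64, of which 57 were. The members' median log2 change of -0.05 went to -0.44 as deposited, -0.33 with median centring and 0.0056 with cyclic loess, and lay between -0.06 and -0.02 with 1 array left out. The count of members passing in light against dark was 4, and went to 41 as deposited, 38 on centring by medians, 16 on centring by 75th percentiles, 8 with cyclic loess, 10 with the replicate block, 10 with trend and robust variance and 1 with consecutive numbers averaged. With 1 array left out it was 3 to 5. The count for replicate number, 0, was 1 under each of the other 4 scalings, with the floor at the 5% quantile and with no filter, 7 with trend and robust variance and 5 over pairs. It was 0 or 1 with 1 array left out, and 1 without dark replicate 2 or light replicate 2. Of 588 values of 28 genes (those of the naming rule and the 4 called members), 535 stayed within 1 SD or kept their call, 35 moved further, 16 lost the call and 2 changed the sign of a called value. The 2 were of AT1G50390, -0.32 in the unscaled values and -0.21 on centring by medians. The lost calls were of AT4G17070 (75th percentiles, averaged numbers), AT1G12800 (averaged numbers, without replicates 1 and 2) and AT1G50390 (the same 3 settings and 9 of 12 left-out arrays). The causes were not tested beyond the construction of the scalings. With 6 arrays a group, the fit without a replicate term leaves changes within the printed intervals unresolved.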
